A study of Mus musculus with 48 samples.

Results

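Slow-twitch muscle fibers carry their own set of contractile and calcium-handling proteins, and 10 genes for such proteins were followed in the tibialis anterior (TA) muscle of mice: *Myh7*, *Myl2*, *Myl3*, *Tnnc1*, *Tnni1*, *Tnnt1*, *Tpm3*, *Atp2a2*, *Casq2* and *Myoz2*. They were chosen by gene symbol, and the table of expression levels lists all 10 among 56748 genes. All 10 also passed the filter on low counts that left 15637 genes for testing. The libraries came from 48 male mice, given as 39 to 55 weeks old by the labels, with 2 mice in each of 24 groups. WT and FoxP1SkmKO mice received either KPC cells, a line from a murine pancreatic tumor, or saline into the pancreas (KPC and control mice), and their TA muscles were taken in constant darkness at circadian time (CT) 18, 22, 26, 30, 34 or 38. FoxP1SkmKO mice are homozygous FoxP1 fl/fl with an ACTA1-Cre transgene that recombines the allele in muscle fibers and not in the other cells of the tissue. The sources disagree on the WT mice, which are C57BL/6J in the labels and the methods and FoxP1 fl/fl without Cre in the series record, and a passage of the paper gives younger ages.

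Muscle fibers contract when myosin heads pull on actin filaments, and fiber types differ mainly in the myosin heavy chain that they express. Slow fibers use *Myh7*, fast fibers use *Myh2*, *Myh1* or *Myh4*, and the light chains, troponin subunits, tropomyosins and calcium pumps have slow and fast counterparts encoded by separate genes. The TA of the mouse is known as a fast muscle with very few slow fibers, and many of the slow-fiber genes are also expressed in the heart.

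The libraries held 14480867 to 20787784 counts on genes (median 16602091), and replicate mice differed by 5.15 to 17.4 times the sampling noise (chi-square per degree of freedom). The level of *Foxp1* as counted over the whole gene did not separate the genotypes. Its median was 0.615 FPKM (fragments per kilobase of gene, scaled to library size) in WT control, 0.636 in WT KPC, 0.585 in FoxP1SkmKO control and 0.531 in FoxP1SkmKO KPC mice, and its log2 fold change between FoxP1SkmKO and WT mice was -0.11 in control and -0.20 in KPC mice (standard errors 0.07, adjusted p = 0.459 and 0.246 in edgeR's quasi-likelihood test). Genotypes are therefore named as labelled, and reads over an undeleted part of the gene would not show a deletion.

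The slow-fiber genes were expressed at a small fraction of the level of their fast counterparts, on the FPKM scale, which is per gene length. *Myh7*, the slow myosin heavy chain, had a median of 0.412 FPKM over the 48 muscles, with a lowest value of 0.237 and a highest of 4.76. The fast heavy chain *Myh4* had a median of 9607 FPKM, *Myh1* of 1611 and *Myh2* of 91.1. *Myh7* therefore stood at a median of 0.00444% of *Myh4*, and at most 0.0490% in any muscle. In bulk muscle, fewer slow fibers and less RNA per slow fiber cannot be told apart.

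Among the other slow-fiber genes, the median ratio to the fast counterpart was 0.0172% for the regulatory light chains *Myl2* and *Mylpf*, and 0.467% for the essential light chains *Myl3* and *Myl1*. For the troponins, the median ratio was 0.0181% for the inhibitory subunits *Tnni1* and *Tnni2* and 0.0259% for the tropomyosin-binding subunits *Tnnt1* and *Tnnt3*. It was 0.291% for the tropomyosins *Tpm3* and *Tpm1*, 0.0556% for the calcium pumps of the sarcoplasmic reticulum *Atp2a2* and *Atp2a1*, 1.46% for the calcium-binding proteins *Casq2* and *Casq1*, and 0.435% for the Z-disc proteins *Myoz2* and *Myoz1*. *Casq2* thus had the highest ratio of these, followed by *Myl3* and *Myoz2*. No ratio was used for the calcium-binding subunit *Tnnc1*, since its fast counterpart *Tnnc2* shares 68.7% of its exon bases with *Ube2c* and was listed at only 0.415 to 1.80 FPKM.

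**Figure D1:**
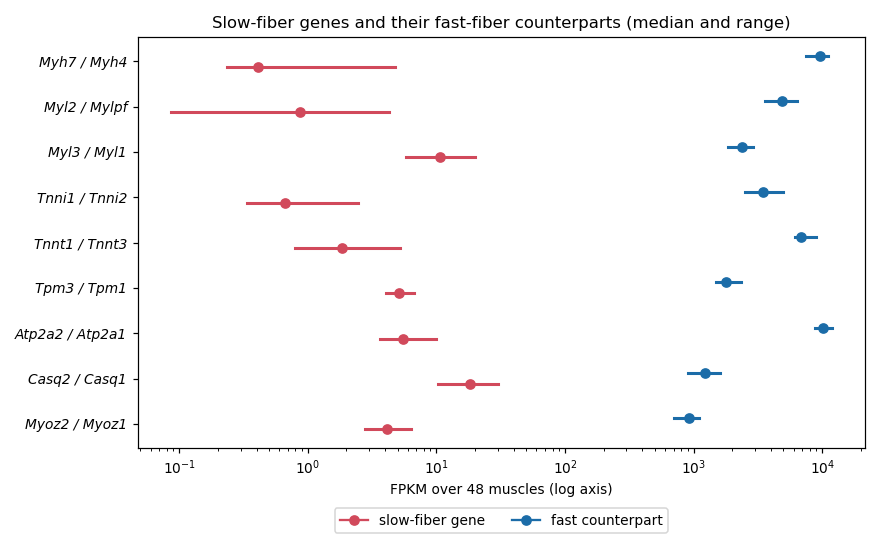
Levels of the slow-fiber genes other than *Tnnc1* (red) and their fast-fiber counterparts (blue) over 48 muscles, with the median as a point and the lowest and highest values as a line, on a log axis of FPKM. *Myh7* lies between 0.237 and 4.76 FPKM and *Myh4* between 7512 and 11093 FPKM, and *Tnnc1* and *Tnnc2* are not drawn.

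In order of the median level, *Myh7* was lowest, followed by *Tnni1* at 0.663, *Myl2* at 0.875, *Tnnt1* at 1.85, *Tnnc1* at 2.14, *Myoz2* at 4.14, *Tpm3* at 5.16, *Atp2a2* at 5.55, *Myl3* at 10.7 and *Casq2* at 18.3 FPKM. The ranges over the 48 muscles overlapped for every pair of neighbors in this order. What differed most was the width of the range. *Tpm3*, which also gives rise to tropomyosins outside muscle fibers, varied from 4.05 to 6.65 FPKM, whereas *Myl2* varied from 0.0861 to 4.28 FPKM.

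*Myh7* (chromosome 14 of mm39, 55208141 to 55232083, minus strand) was low in most muscles and high in a few. It was over 1 FPKM in 13 of 48 muscles, namely 3 of 12 in WT control, 4 of 12 in WT KPC, 2 of 12 in FoxP1SkmKO control and 4 of 12 in FoxP1SkmKO KPC mice. The highest values were 4.76 FPKM in a WT KPC mouse at CT34, 4.45 in a FoxP1SkmKO KPC mouse at CT34, 3.98 in a WT KPC mouse at CT30 and 3.58 in a FoxP1SkmKO KPC mouse at CT30. Each of these 4 mice had a partner of the same group between 0.459 and 1.03 FPKM. Between 33 and 665 counts per library lay behind these values (median 64.5), and 24.6% of the exon bases of *Myh7* are shared with the antisense transcript *Mhrt*. Whether reads were counted by strand was not given in the sources used here, so reads of the pair cannot be told apart there.

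The light chains differed from each other. *Myl2* (chromosome 5, 122239014 to 122251535, plus strand) encodes the slow regulatory light chain, and it had the lowest counts of the members, from 3 to 138 per library. Its level had a lowest, median and highest value of 0.306, 1.39 and 3.30 FPKM in WT control, 0.199, 0.810 and 4.28 in WT KPC, 0.0861, 0.522 and 2.00 in FoxP1SkmKO control, and 0.163, 0.667 and 2.52 in FoxP1SkmKO KPC mice. *Myl3* (chromosome 9, 110570929 to 110598866, plus strand), the slow essential light chain, was steadier. It had 8.34, 12.2 and 19.0 FPKM in WT control, 5.91, 12.0 and 19.9 in WT KPC, 5.88, 8.63 and 13.7 in FoxP1SkmKO control, and 5.81, 10.3 and 15.6 in FoxP1SkmKO KPC mice. All 4 ranges overlapped for both genes, and the median of each gene was lowest in FoxP1SkmKO control mice.

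The 3 slow troponin subunits form the calcium switch on the thin filament. *Tnnc1* (chromosome 14, 30930269 to 30933686, plus strand) binds calcium and had 0.882, 2.15 and 4.70 FPKM in WT control, 1.12, 2.16 and 6.34 in WT KPC, 0.8998, 1.99 and 3.48 in FoxP1SkmKO control, and 1.06, 2.14 and 6.68 in FoxP1SkmKO KPC mice. *Tnni1* (chromosome 1, 135707172 to 135738727, plus strand) inhibits the actin-myosin interaction at rest and had medians of 0.579, 0.668, 0.684 and 0.720 FPKM in the same order of groups. *Tnnt1* (chromosome 7, 4507569 to 4519381, minus strand) ties the complex to tropomyosin and had medians of 1.94, 1.69, 1.84 and 1.98 FPKM. For all 3 subunits the medians of the groups lay close together and the highest muscle was in a KPC group, at 6.68 FPKM for *Tnnc1*, 2.46 for *Tnni1* and 5.24 for *Tnnt1*.

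The remaining 4 members act outside the myosin motor and the troponin switch. *Tpm3* (chromosome 3, 89979956 to 90008209, plus strand) encodes the slow tropomyosin and had medians from 4.86 FPKM in WT control to 5.33 in FoxP1SkmKO KPC mice. *Atp2a2* (chromosome 5, 122591576 to 122640288, minus strand) encodes the calcium pump SERCA2 and had medians from 4.98 FPKM in WT control to 6.03 in FoxP1SkmKO KPC mice. *Casq2* (chromosome 3, 101993731 to 102053830, plus strand), which stores calcium in the sarcoplasmic reticulum, had medians of 18.9 in WT control, 16.2 in WT KPC, 20.4 in FoxP1SkmKO control and 18.3 FPKM in FoxP1SkmKO KPC mice. *Myoz2* (chromosome 3, 122799855 to 122828664, minus strand), a Z-disc protein that binds calcineurin, had medians from 4.07 FPKM in FoxP1SkmKO KPC to 4.59 in WT KPC mice. The ranges of the 4 groups overlapped for each of these genes.

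**Figure D2:**
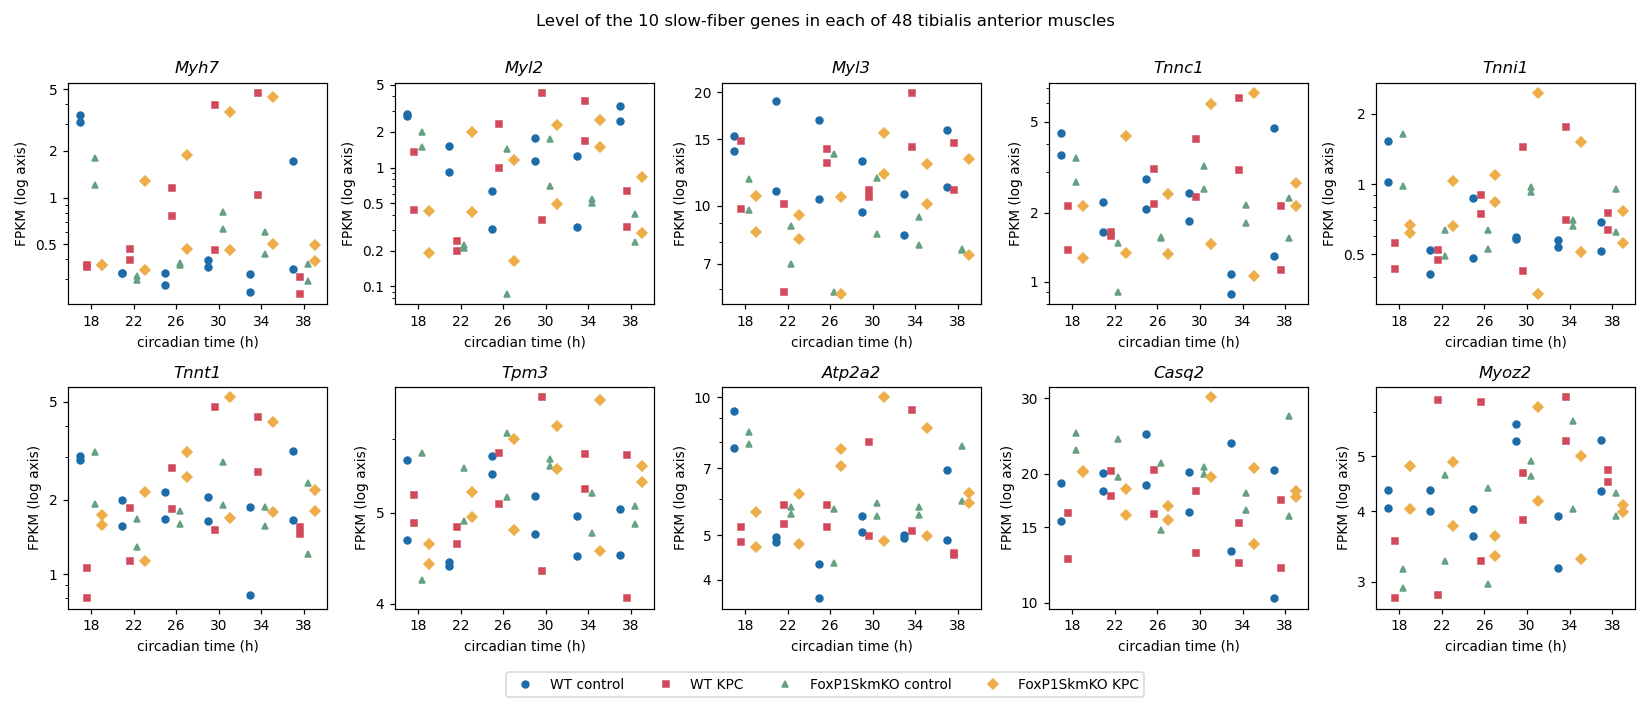
FPKM of the 10 slow-fiber genes (log axis, 1 panel per gene) against circadian time in hours, with 1 point per mouse, and color and marker by genotype and condition. Single mice stand apart for *Myh7*, *Tnnc1*, *Tnni1* and *Tnnt1* in the same groups, such as the FoxP1SkmKO KPC group at CT30, while *Tpm3* stays between 4.05 and 6.65 FPKM.

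Replicate mice of the same group differed widely in these genes. *Myh7* differed by more than 2-fold between the 2 mice in 7 of 24 groups, of which 1 of 12 were control groups and 6 of 12 were KPC groups, and the largest difference was 8.90-fold. *Myl2* differed by more than 2-fold in 14 groups, 4 of 12 control and 10 of 12 KPC groups, with a largest difference of 16.7-fold. *Tnnc1* passed this limit in 5 groups (1 control and 4 KPC), *Tnni1* in 4 (0 and 4) and *Tnnt1* in 4 (1 and 3). *Myl3* passed it in 1 control group, *Atp2a2* and *Myoz2* in 1 KPC group each, and *Tpm3* and *Casq2* in none of the 24. No test was made of the difference between control and KPC groups in these counts, and they have no background from other genes beside them.

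The standard deviation between mice, on the log2 CPM scale, was 0.99 for *Myh7*, against a median of 0.22 over 1781 genes of like mean level. It was 1.06 for *Myl2* (0.38 over 1440 genes of like level), 0.67 for *Tnnc1* (0.32), 0.60 for *Tnni1* (0.30), 0.53 for *Tnnt1* (0.24), 0.38 for *Myl3* (0.13), 0.31 for *Casq2* (0.10), 0.30 for *Myoz2* (0.15), 0.28 for *Atp2a2* (0.11) and 0.18 for *Tpm3* (0.11). All 10 members thus varied more between mice than the median gene of their level.

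Part of the members varied together from mouse to mouse. Over the 24 pairs of mice, the log2 difference in *Myh7* between mates of a group had a Pearson correlation of 0.88 with that of *Atp2a2*, 0.87 with *Tnni1*, 0.87 with *Tnnc1* and 0.78 with *Tnnt1*. Among these 5 genes the 10 correlations ran from 0.71 to 0.88. *Tpm3* had 0.69, *Myl2* 0.56, *Myoz2* 0.39, *Casq2* 0.30 and *Myl3* 0.15 with *Myh7*. *Myh7* differed by more than 2-fold in only 7 of the 24 pairs, and such pairs weigh most in a Pearson correlation. Spearman's rank correlation with *Myh7* was 0.76 for *Tnnc1*, 0.75 for *Tnni1*, 0.71 for *Tpm3*, 0.64 for *Atp2a2* and 0.63 for *Tnnt1*. It was 0.51 for *Casq2*, 0.41 for *Myl2*, 0.36 for *Myoz2* and 0.10 for *Myl3*. The values of a pair share libraries and depth, so these correlations are descriptions of 24 differences.

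The FoxP1SkmKO KPC group at CT30 shows the pattern in its 2 mice. *Myh7* was 0.459 FPKM in replicate 1 and 3.58 in replicate 2, *Tnnc1* 1.46 and 5.99, *Tnni1* 0.338 and 2.46, *Tnnt1* 1.68 and 5.24, and *Atp2a2* 4.87 and 10.01 FPKM. *Casq2* at 19.7 and 30.2 and *Myoz2* at 4.18 and 6.11 FPKM were also higher in replicate 2, and *Tpm3* was at 5.58 and 6.19 FPKM. The direction was less regular over all groups, since *Tnnc1* moved the way of *Myh7* in 20 of 24 pairs, *Casq2* in 19, *Tnnt1* in 18, *Myl2*, *Tnni1*, *Tpm3* and *Myoz2* in 17 each, *Atp2a2* in 13 and *Myl3* in 12.

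**Figure D3:**
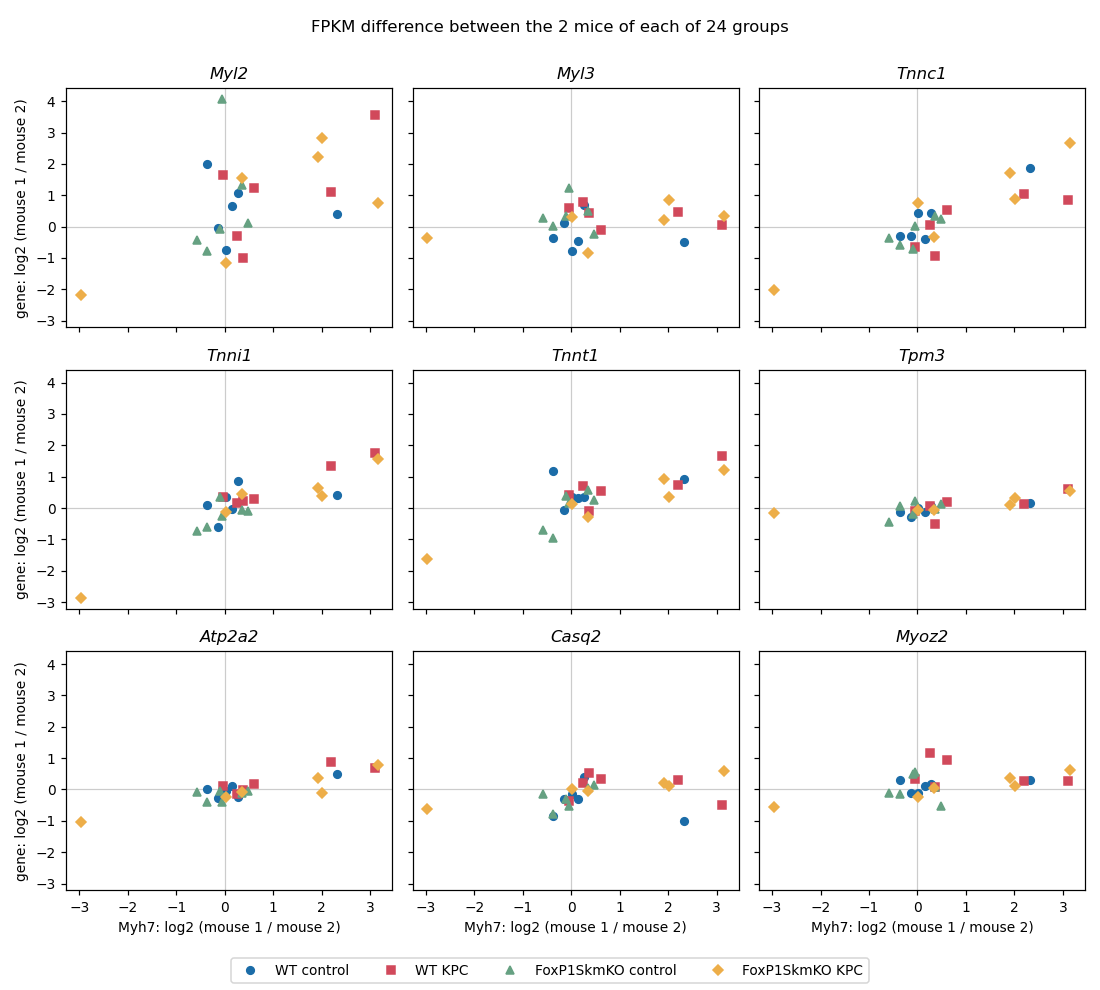
Log2 ratio of the FPKM of mouse 1 to mouse 2 in each of 24 groups, for *Myh7* on the x axis and for each other slow-fiber gene on the y axis, with color and marker by genotype and condition. *Atp2a2*, *Tnni1*, *Tnnc1* and *Tnnt1* follow *Myh7* (Pearson r from 0.78 to 0.88 over 24 pairs), whereas *Myl3* does not (0.15). These r values were computed from differences in log2 CPM and not from the FPKM ratios drawn.

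The 250 bases upstream of the start sites of *Myh7* and *Tnnc1* are given because these genes moved together between mice and because the RefSeq start of each (GRCm39, the assembly of mm39) coincides with its canonical transcript start. Capitals mark the MCAT element, CATTCC on either strand, which is bound by TEAD factors. In both promoters it is on the reverse strand, from 201 to 196 bases before the start in *Myh7* and from 58 to 53 bases before it in *Tnnc1*.
Myh7, chr14:55232084-55232333, minus strand: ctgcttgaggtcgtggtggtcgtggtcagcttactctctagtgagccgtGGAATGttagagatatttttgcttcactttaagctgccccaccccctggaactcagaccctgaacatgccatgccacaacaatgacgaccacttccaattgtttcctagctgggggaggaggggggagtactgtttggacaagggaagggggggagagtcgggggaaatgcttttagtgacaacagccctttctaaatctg
Tnnc1, chr14:30930019-30930268, plus strand: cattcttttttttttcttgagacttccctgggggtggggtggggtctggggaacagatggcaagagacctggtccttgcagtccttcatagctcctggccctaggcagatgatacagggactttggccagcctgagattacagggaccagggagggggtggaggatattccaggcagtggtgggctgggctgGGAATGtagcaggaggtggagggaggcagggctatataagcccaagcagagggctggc
Promoters of 7 members were matched in the RefSeq table (*Myh7*, *Myl3*, *Tnnc1*, *Tnni1*, *Tnnt1*, *Tpm3* and *Myoz2*). CATTCC was in 3 of these 7 (*Myh7*, *Tnnc1* and *Myl3*), against 12.6% of 32851 promoters of the same length, and the E-box CAGCTG was in 2 of 7, against 13.001%. CATTCC was absent from *Tnni1* and *Tnnt1*, which also moved with *Myh7* between mice, and present in *Myl3*, which did not (r of 0.15). The promoter of *Atp2a2*, the member with the highest correlation with *Myh7*, was not searched. Whether the element bears on which genes moved together was not tested. TATAAA was in 1 of 7 (12.4% of all), the MEF2 motif in 1 (2.92%) and the CArG box in 1 (1.47%), and the forkhead letters TGTTTAC were in 0 of 7 (3.17%). Both strands were searched. A match only describes these letters in this window.

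Outside the members, the genes whose deviations from their group means most resembled the mean of the 10 members were *Myom3* (Pearson r of 0.81 over 48 libraries, which hold 24 independent pairs), *Ppie* (0.67) and *Tead3* (0.64) among 9650 genes compared. *Brd9*, *Adcy1*, *Fxyd6*, *Erbb2*, *Chrna1*, *Xpo4* and *Plce1* followed, with r down to 0.58. At the other end of the ranking, *Vps36* had an r of -0.75, *Rad9a* of -0.66 and *Abt1* of -0.66. Apart from that of *Myom3*, the highest values were thus no larger in size than the lowest one. The ranking of so many genes on so few pairs was not tested. The members themselves had r from 0.30 (*Casq2*) to 0.92 (*Myh7*) with this mean, of which each is a part.

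Markers of other tissue were examined next to these differences between mice. The summed level of 7 cardiac markers moved in the direction of *Myh7* in 17 of 24 pairs. It lay between 1.36 and 2.17 FPKM in WT control, 1.37 and 2.29 in WT KPC, 1.199 and 2.72 in FoxP1SkmKO control, and 1.43 and 3.59 in FoxP1SkmKO KPC mice. Of the 7 cardiac markers, *Myl7* was listed at 0 in 45, *Mybpc3* in 42, *Nppb* in 39 and *Nppa* in 36 of 48 muscles. *Tnni3* was at 0 in 5 muscles, and *Tnnt2*, at 0.206 to 2.11 FPKM, was at 0 in none. The highest median was 1.24 FPKM for *Myh6* (0.809 to 2.13 FPKM), which muscle spindles also express, against 0.330 for *Tnnt2*.

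The sum of 4 spindle and developmental myosins (*Myh3*, *Myh6*, *Myh7b*, *Myh8*) also moved with *Myh7* in 17 of 24 pairs, and lay between 2.75 and 4.80 FPKM in WT control, 3.31 and 5.28 in WT KPC, 3.70 and 5.68 in FoxP1SkmKO control, and 3.18 and 6.24 in FoxP1SkmKO KPC mice. None of these 4 was at 0 in any muscle. The sum of 6 tendon markers moved with *Myh7* in 15 of 24 pairs and ranged from 17.1 to 55.5 FPKM (median 31.1) in WT control, 13.6 to 35.0 (19.3) in WT KPC, 17.7 to 46.3 (25.4) in FoxP1SkmKO control and 12.6 to 41.5 (20.4) in FoxP1SkmKO KPC mice, so that the ranges overlapped between groups. Of the tendon markers, *Mkx* was listed at 0 in 4 muscles and the others in none. For 3 adipocyte markers the count was 12, for 4 smooth muscle markers 10, and for 4 fast-muscle markers, whose sum ranged from 17525 to 24194 FPKM, it was 9 of 24. The part of these tissues in the differences between mice was not tested.

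The study compared KPC with control mice at each circadian time to learn when the tumor changes muscle transcription. For the slow-fiber genes, the values at CT18 and CT34 lay on opposite sides. In WT mice at CT18, *Myh7* had 3.09 and 3.40 FPKM in the control mice and 0.357 and 0.369 in the KPC mice, a log2 fold change of -3.16 (SE 0.87, unadjusted p = 0.000912, Benjamini-Hochberg adjusted p = 0.594 over all genes in edgeR's quasi-likelihood test). The groups did not overlap, and the control mice were high. At CT34 the control mice had 0.246 and 0.318 FPKM and the KPC mice 4.76 and 1.03, a log2 fold change of 3.38 (SE 0.92, unadjusted p = 0.000847, adjusted p = 0.6001 in edgeR), and here the KPC mice were high.

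Other members lay on the same sides as *Myh7* at these times. *Tnnt1* had 2.90 and 3.03 FPKM in control and 1.06 and 0.796 in KPC WT mice at CT18 (log2 fold change -1.69, SE 0.50), and 1.87 and 0.820 against 4.34 and 2.59 at CT34 (1.37, SE 0.48). *Tnnc1* had 3.59 and 4.45 against 1.38 and 2.14 FPKM at CT18 (-1.19, SE 0.59), and 0.882 and 1.08 against 6.34 and 3.07 at CT34 (2.28, SE 0.66). *Atp2a2* had 7.73 and 9.33 against 5.20 and 4.84 FPKM at CT18 (-0.77, SE 0.25), and 5.001 and 4.94 against 9.37 and 5.12 at CT34 (0.56, SE 0.25). At CT18 the control groups were above the KPC groups for all 3 genes, and at CT34 they were below.

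In WT mice at CT18, 7 of 10 members were lower in both KPC mice than in both control mice, against 17.4% of the 15637 genes tested. At CT34, 9 of 10 were higher in both KPC mice, against 18.9% of the genes, and *Casq2* was the exception. At CT38, 4 of 10 were lower in both KPC mice, against 20.6%. These members vary together between mice, as shown above, so the counts do not stand for separate observations.

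FoxP1SkmKO mice had values on the same sides at CT18. *Myh7* was at 1.204 and 1.80 FPKM in control and 0.369 and 0.365 in KPC mice (log2 fold change -2.02, SE 0.90), and *Atp2a2* at 7.90 and 8.40 against 4.72 and 5.61 (-0.64, SE 0.25). Both KPC mice were below both control mice for 7 of 10 members, against 20.2% of genes, and *Myoz2* was the member with both KPC mice above, at 4.04 and 4.81 FPKM against 2.93 and 3.16. At CT26, 4 of 10 members were higher in both KPC mice, against 20.3% of genes. At CT34, where 9 of 10 were higher in WT mice, 2 of 10 were higher in both KPC mice and none lower, against 17.0% of genes higher. *Myh7* had 0.5999 and 0.430 FPKM in control and 4.45 and 0.499 in KPC mice at this time, so that a single KPC mouse stood apart and the groups overlapped. At the times not named here for a genotype, 0 to 3 members were higher and 0 to 3 lower in both KPC mice, against 16.6% to 25.7% of genes in either direction.

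None of these differences passed the test across all genes. Of the 60 tests of 10 members at 6 times, edgeR's quasi-likelihood test on all 48 libraries called 0 in WT mice, 0 in FoxP1SkmKO mice and 0 for the difference between the genotypes at an adjusted p under 0.05. The shares of all genes called in WT mice were 0.0% at CT18, 0.0% at CT22, 7.17% at CT26, 0.0064% at CT30, 0.0% at CT34 and 0.0256% at CT38. They were 0.0192%, 0.0%, 0.0384%, 0.0%, 0.0% and 0.0064% in FoxP1SkmKO mice, and 0.0%, 0.0064%, 0.345%, 0.0%, 0.0064% and 0.0% for the difference, in the same order of times. At an unadjusted p under 0.05, 4 members passed in WT mice at CT18 and 8 at CT34, against 6.23% and 6.06% of all genes, and 3 passed in FoxP1SkmKO mice at CT18, against 13.8%.

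The count of calls depended on which libraries set the spread. With only the 4 libraries of a comparison, DESeq2 called *Myh7*, *Tnnt1* and *Atp2a2* lower in WT KPC mice at CT18 (0.25% of genes called), *Tnnc1* and *Myl3* higher at CT34 (0.57%), *Myl2* lower at CT38 (0.565%), and *Myh7* and *Atp2a2* lower in FoxP1SkmKO KPC mice at CT18 (0.889%). On the same 4 libraries, edgeR called the 3 genes in WT mice at CT18 (0.295%), *Myl2* at CT38 (0.463%), *Myh7* higher at CT26 (2.55%), and *Myh7* in FoxP1SkmKO mice at CT18 (0.302%). In such a fit the spread comes from the 4 mice compared, and the differences between mates in other groups do not enter it. DESeq2 gave no adjusted p for 5 of the 60 tests in WT and 20 of the 60 in FoxP1SkmKO mice. The study, which used DESeq2 at an FDR q under 0.05, names *Tnnc1* and *Myl3* among the genes higher in WT KPC mice in the rest phase (CT30 and CT34).

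**Figure D4:**
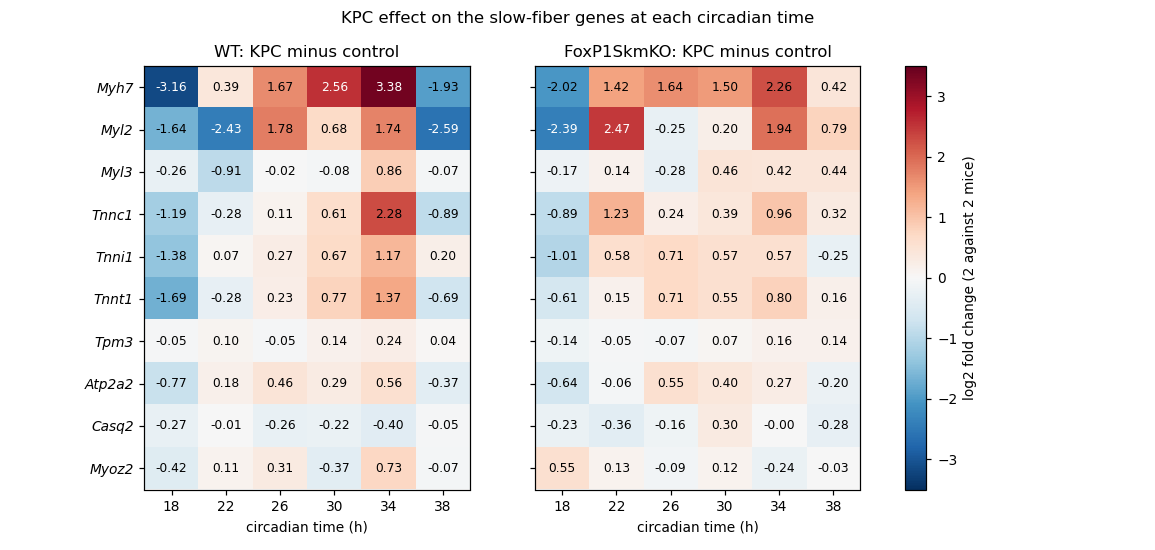
Log2 fold change of KPC against control mice (2 against 2) for each slow-fiber gene (rows) at each circadian time in hours (columns), in WT (left) and FoxP1SkmKO mice (right), with the value in each cell. *Myh7* runs from -3.16 at CT18 to 3.38 at CT34 in WT mice and from -2.02 to 2.26 in FoxP1SkmKO mice, and no cell passes an adjusted p under 0.05 in edgeR.

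Averaged over the 6 times, no slow-fiber gene was called for the KPC effect in either genotype. In WT mice, the log2 fold change was 0.48 (SE 0.39, adjusted p = 0.595 in edgeR) for *Myh7*, -0.41 (SE 0.37) for *Myl2* and -0.20 (SE 0.11, adjusted p = 0.403) for *Casq2*. It was 0.17 for *Tnni1*, 0.11 for *Tnnc1*, 0.07 for *Tpm3*, 0.06 for *Atp2a2*, 0.05 for *Myoz2*, -0.05 for *Tnnt1* and -0.08 for *Myl3*. Without CT34 the value of *Myh7* turned to -0.0941, without CT38 that of *Myl2* turned to 0.0244, and with 1 library left out they ranged from 0.10 to 0.75 and from -0.86 to -0.19. In FoxP1SkmKO mice, it was 0.87 (SE 0.37, adjusted p = 0.319) for *Myh7*, 0.46 (SE 0.41) for *Myl2* and 0.37 (SE 0.25) for *Tnnc1*, and with 1 library left out these ranged from 0.48 to 1.01, from 0.13 to 0.97 and from 0.06 to 0.50. It was 0.29 for *Tnnt1*, 0.20 for *Tnni1*, 0.17 for *Myl3*, 0.08 for *Myoz2*, 0.05 for *Atp2a2*, 0.02 for *Tpm3* and -0.12 for *Casq2*. The test called 0 of 10 members in WT mice, where it called 1.79% of all genes, and 0 of 10 in FoxP1SkmKO mice, where it called 0.428%. At an unadjusted p under 0.05, 0 members passed in WT mice and 1, *Myh7*, passed in FoxP1SkmKO mice, against 15.2% and 12.4% of all genes.

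The median log2 fold change of the members was 0.05 in WT and 0.18 in FoxP1SkmKO mice, against 0.00 over all genes in both. The difference of the KPC effect between WT and FoxP1SkmKO mice was called for 0 of 10 members and for 0.0% of genes. In this comparison 0 members had an unadjusted p under 0.05, against 6.52% of genes. The difference was largest for *Myl2* at -0.87 (SE 0.56, adjusted p = 0.834 in edgeR), and was -0.39 for *Myh7*, -0.34 for *Tnnt1*, -0.27 for *Tnnc1*, -0.25 for *Myl3*, -0.08 for *Casq2*, 0.05 for *Tpm3*, -0.03 for *Tnni1*, -0.03 for *Myoz2* and 0.00 for *Atp2a2*.

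Between the genotypes, *Myl3* was lower in FoxP1SkmKO than in WT mice in the absence of a tumor. FoxP1SkmKO control mice had a lowest, median and highest level of 5.88, 8.63 and 13.7 FPKM, against 8.34, 12.2 and 19.0 in WT control mice. The ranges overlapped, the fold change was 0.708 (log2 fold change -0.50, SE 0.13), and the adjusted p was 0.0314 in edgeR's quasi-likelihood test. It was the only one of the 10 members called in this comparison, in which 3.44% of all genes were called, 1.58% as lower. The call was lost with an adjusted p of 0.0530 to 0.0982 when any 1 of 12 libraries was left out (WT control CT18 replicate 1, CT26 replicate 1 and replicate 2 of CT22, CT30, CT34 and CT38, and FoxP1SkmKO control CT34 replicate 1 and replicate 2 of CT18, CT22, CT26, CT30 and CT38), and the log2 fold change stayed between -0.62 and -0.42 over all 48 omissions. Each fit without a library also set the filter on low counts anew, so the genes tested changed with it. The call was also lost without CT18, CT22, CT26 or CT38 (adjusted p from 0.0651 to 0.136) and on the scales of log2(FPKM + 1) and log2(FPKM + 0.1) (adjusted p of 0.0643 and 0.0642 in limma).

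*Myl2* had the largest difference between the genotypes in control mice, at a log2 fold change of -1.08 (SE 0.39, adjusted p = 0.122 in edgeR), and it passed without the FoxP1SkmKO control replicate 1 at CT26 (-1.60, adjusted p = 0.0276) and without the filter on low counts (-1.09, adjusted p = 3.36e-10). Of the other members, *Tnni1* was at 0.24, *Atp2a2* at 0.16, *Casq2* at 0.15, *Tpm3* at 0.09, *Tnnt1* at -0.07, *Myoz2* at -0.10, *Myh7* at -0.13 and *Tnnc1* at -0.15. In KPC mice, 0 of 10 members were called between the genotypes, against 0.32% of genes. At an unadjusted p under 0.05, 1 member passed, against 10.8% of genes. *Casq2* was at 0.24 (SE 0.11, adjusted p = 0.432) and *Myl3* at -0.25 (SE 0.13, adjusted p = 0.507 in edgeR), so that *Myl3* was not called lower in FoxP1SkmKO mice that bore tumors. The other values were 0.27 for *Tnnt1*, 0.26 for *Tnni1*, 0.26 for *Myh7*, 0.16 for *Atp2a2*, 0.11 for *Tnnc1*, 0.03 for *Tpm3*, -0.08 for *Myoz2* and -0.21 for *Myl2*. Whether the difference of *Myl3* between the genotypes itself differed with the tumor was tested by the same contrast as above (-0.25, SE 0.19, adjusted p = 0.862 in edgeR).

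**Figure D5:**
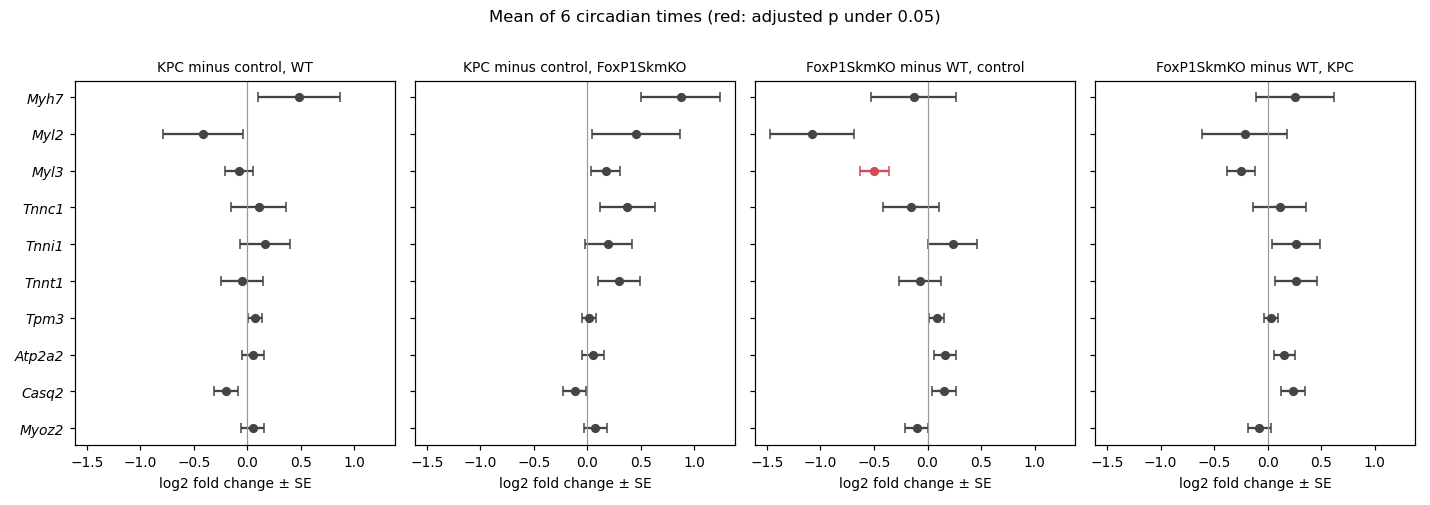
Log2 fold change of the 10 slow-fiber genes with its standard error, as the mean of 6 circadian times, in 4 panels for KPC against control in WT and in FoxP1SkmKO mice and for FoxP1SkmKO against WT in control and in KPC mice. *Myl3* in control mice, at -0.50, is the only value with an adjusted p under 0.05, and *Myh7* and *Myl2* have the widest errors.

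The share of *Myh7* in the summed FPKM of *Myh7*, *Myh2*, *Myh1* and *Myh4* does not depend on how libraries are scaled. It ranged from 0.00189% to 0.0412% over the 48 muscles, with a median of 0.00380%, while *Myh4* made up 80.1% to 88.2%. The mean share was 0.00830% ± 0.00996 (SD, n = 12) in WT control, 0.0103% ± 0.0132 (n = 12) in WT KPC, 0.00557% ± 0.00398 (n = 12) in FoxP1SkmKO control and 0.0106% ± 0.0118 (n = 12) in FoxP1SkmKO KPC mice. The standard deviation exceeded the mean in each group other than FoxP1SkmKO control.

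In two-sided exact permutation tests within circadian time, KPC and control mice differed by 0.00205 percentage points in WT mice (p = 0.662, adjusted over 4 tests 0.883) and by 0.00502 in FoxP1SkmKO mice (p = 0.228, adjusted 0.455). In the same exact tests, FoxP1SkmKO and WT mice differed by -0.00272 percentage points among control mice (p = 0.165, adjusted 0.455) and by 0.000248 among KPC mice (p = 0.927, adjusted 0.927). None of the 4 differences passed the test.

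A circadian rhythm of the slow-fiber genes was not detected within any group. A sinusoid of 24 h was fitted to the FPKM of the 12 libraries of each genotype and condition, with an F test of its terms on 9 residual degrees of freedom and an unadjusted p under 0.01 as the threshold of the study. It called 0 of 10 members in WT control (4.92% of genes called), 0 in WT KPC (4.22%), 0 in FoxP1SkmKO control (4.07%) and 0 in FoxP1SkmKO KPC mice (2.63%). The members nearest the threshold were *Myl2* in WT control, *Atp2a2* in FoxP1SkmKO control, *Tnnt1* in WT KPC and *Myh7* in WT control mice. Their unadjusted p in this F test was 0.0148, 0.0180, 0.0350 and 0.0455, and 0.237, 0.306, 0.386 and 0.349 when adjusted over all genes. A single member passed when 1 library was left out of its group, which happened without WT control CT30 replicate 1 or CT34 replicate 2, without WT KPC CT30 replicate 2, and without FoxP1SkmKO control CT38 replicate 1.

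The fitted curves of *Myh7* peaked at 17.3 h of the 24 h cycle in WT control and 17.1 h in FoxP1SkmKO control mice, close to CT18, and at 7.62 h in WT KPC and 7.05 h in FoxP1SkmKO KPC mice, between CT30 and CT34. In WT control mice its amplitude was 1.10 FPKM around a mean of 0.926, and it rests on the values of 3.09 and 3.40 FPKM at CT18 and 1.72 at CT38, since the other 9 mice were at or below 0.394 FPKM. These fits did not pass the threshold, and no difference of peak time was tested.

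In a fit of 1 rhythm shared by all 48 libraries, only *Tpm3* of the 10 members passed (adjusted p = 0.0463 in edgeR's quasi-likelihood test, 34.9% of all genes called). Its amplitude was 0.09 on the log2 scale, a 1.14-fold difference between peak and trough, with a fitted peak at CT29.5. The call was kept in only 3 of the 48 fits that left out 1 library each. Each of the 48 also set the filter on low counts anew, and the 3 tested 16412, 16417 and 16356 genes against 15637. The losses thus cannot be put down to single mice alone. *Myh7* had a larger fitted amplitude of 0.45 and did not pass (adjusted p = 0.408 in edgeR).

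Some fast counterparts and other fiber-type genes were called in the same averaged comparisons, mostly between the genotypes in control mice. Of 12 fast counterparts, 2 were called, both lower in FoxP1SkmKO than in WT control mice, where 3.44% of all genes were called and 1.58% as lower. They were the troponin subunits *Tnnt3* (log2 fold change -0.14, SE 0.04, adjusted p = 0.0339 in edgeR) and *Tnni2* (-0.15, SE 0.04, adjusted p = 0.0398). The list had a median of -0.10 in that comparison, against -0.09 for the slow members and 0.00 for all genes. No fast counterpart was called in the KPC effects of either genotype, in their difference or between the genotypes in KPC mice.

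Of 12 other slow-fiber and oxidative genes, *Smpx*, a small muscle protein of the costamere, was lower in KPC than in control WT mice (log2 fold change -0.17, SE 0.05, adjusted p = 0.0479 in edgeR) and lower in FoxP1SkmKO than in WT control mice (-0.23, SE 0.05, adjusted p = 0.00240). *Csrp3*, the muscle LIM protein, was lower in FoxP1SkmKO than in WT control mice (-0.97, SE 0.27, adjusted p = 0.0403 in edgeR), with 0.984, 2.32 and 4.09 against 0.840, 3.14 and 18.9 FPKM as lowest, median and highest values. The 2 comparisons of *Smpx* share the WT control mice. These 2 calls of 12 among control mice stand against 3.44% of all genes, and the call of 1 of 12 for the KPC effect in WT mice against 1.79%. The other 10 genes of this list were called in none of the 5 averaged comparisons. Among them *Sln*, an inhibitor of the calcium pump that was chosen here after its values were seen, had a log2 fold change between FoxP1SkmKO and WT mice of 1.62 in control (SE 0.52, adjusted p = 0.0739 in edgeR) and 1.37 in KPC mice (SE 0.47, adjusted p = 0.230 in edgeR).

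Of 25 regulators of fiber type, 4 were called lower in FoxP1SkmKO than in WT control mice and none higher, against 1.58% of all genes called lower. These were the calcineurin subunits *Ppp3r1* (log2 fold change -0.18, adjusted p = 0.00485 in edgeR) and *Ppp3cb* (-0.15, adjusted p = 0.0264), *Tbx15*, a transcription factor of glycolytic fibers (-0.17, adjusted p = 0.0209), and *Eya1*, a transcriptional cofactor (-0.19, adjusted p = 0.0340). *Hdac4*, a deacetylase that restrains MEF2, was higher in KPC than in control FoxP1SkmKO mice (0.26, SE 0.06, adjusted p = 0.0307 in edgeR), the only call of the 25 in a comparison with 0.428% of all genes called. No regulator was called in the KPC effect in WT mice, in the difference of the KPC effects or between the genotypes in KPC mice. Calls among the fast counterparts, the other slow-fiber and oxidative genes and the regulators were not checked with libraries left out or under other settings. Such checks, under which the call of *Myl3* was often lost, were made for the slow-fiber members only.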

How the data were processed

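TA muscles of 48 mice were profiled by RNA-seq of poly-A selected RNA, with 1 library per mouse. Groups were taken from the sample labels, as genotype, condition and circadian time with 2 mice each. Reads were paired-end and aligned to mm39. The authors deposited raw counts per gene, in 12 tables of 4 libraries, and FPKM, which the authors computed from the counts, the gene lengths and the library size. The methods name STAR and HTSeq for these steps, whereas the labels' processing notes name HISAT2 2.0.5, with DESeq2 1.20.0 for comparisons. Further columns of the deposited tables hold counts divided by size factors and the authors' own DESeq2 comparisons (fold changes, p-values and adjusted p-values), and these were not used. Genes that a count table leaves out were filled in from the FPKM as whole reads (at most 1 read each, within 0.001 of a whole number), which made up at most 0.00642% of a library. No pair of libraries was identical.

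The 10 slow-fiber genes and all gene lists were chosen with earlier results of these data known, and so were the tests. Every slow-fiber gene is given in the averaged comparisons, at single times by counts, examples and a plot of all values, and of the other lists those called in a comparison, with *Sln* added.

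Counts were tested with edgeR 4.0.16 (R 4.3.3). The function filterByExpr, given the 24 groups, kept 15637 genes, and TMM scaled the libraries. All 48 libraries entered 1 quasi-likelihood fit, with a term for each group and 8.611 prior degrees of freedom. Its contrasts were KPC against control at each circadian time and as the mean of 6 times, within each genotype and as the difference of the genotypes, and FoxP1SkmKO against WT among control and among KPC mice. P-values were adjusted by Benjamini-Hochberg over all genes, with a threshold of 0.05. Replicate numbers did not pair the mice, since deviations from the group means of same-numbered mice had a median correlation of -0.004 over 276 pairs of groups (from -0.324 to 0.234). Differences between mates used log2 CPM with a prior count of 2. Sinusoids were fitted to FPKM in Python 3.11.15 with numpy 2.4.6, scipy 1.17.1 and pandas 2.3.3. The share of *Myh7* was tested by exact permutation within circadian time (46656 arrangements). Tests were checked on simulated data with known answers.

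Alternatives were RLE size factors, no filter on low counts, the replicate number as a block, log2(FPKM + 1) and log2(FPKM + 0.1) with limma 3.58.1, a minimum mean FPKM of 1 or 0.1, edgeR or DESeq2 1.42.0 on the 4 libraries of a comparison, each circadian time left out and each library left out. The edgeR fits without a library set the filter on low counts anew. Promoters came from a RefSeq table on GRCm39, and entries for *Myl2*, *Atp2a2* and *Casq2* were not used because they start far from the canonical transcript.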

Additional observations from a re-analysis of the deposited data

Results flagged for a closer look

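At 3 points the KPC mice of the genotypes lay on opposite sides of their controls, so that every KPC mouse moved one way in WT and the other way in FoxP1SkmKO mice. For *Myl2* at CT22, WT control mice had 0.914 and 1.52 FPKM and WT KPC mice 0.199 and 0.242, whereas FoxP1SkmKO control mice had 0.210 and 0.222 and FoxP1SkmKO KPC mice 2.01 and 0.427. The difference of the KPC effects (WT minus FoxP1SkmKO) was -4.90 on the log2 scale (SE 1.496, unadjusted p = 0.00251, adjusted p = 0.745 in edgeR's quasi-likelihood test). For *Myoz2* at CT18, the difference was -0.97 (SE 0.39, unadjusted p = 0.0175, adjusted p = 0.373 in edgeR), with 4.05 and 4.35 FPKM in WT control, 3.54 and 2.80 in WT KPC, 2.93 and 3.16 in FoxP1SkmKO control and 4.04 and 4.81 in FoxP1SkmKO KPC mice. For *Myh7* at CT38, it was -2.35 (SE 1.40, unadjusted p = 0.103, adjusted p = 0.999998 in edgeR), with 1.72 and 0.343 FPKM in WT control, 0.307 and 0.237 in WT KPC, 0.288 and 0.372 in FoxP1SkmKO control and 0.497 and 0.391 in FoxP1SkmKO KPC mice. None of the 3 differences passed the correction, and they are 3 of 60 pairs of effects compared. In all 3 the KPC mice were lower in WT and higher in FoxP1SkmKO mice. Over all genes, both KPC mice were lower in WT for 17.4% at CT18, 17.1% at CT22 and 20.6% at CT38. They were higher in FoxP1SkmKO mice for 20.5%, 17.9% and 18.1%. The share of genes that met both conditions was not computed, so the count of 3 has no background beside it.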

How the results depend on the processing

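Most values kept their direction under the alternatives tried, and the calls depended on a few of them. The widest effect came from leaving out the filter on low counts, which put 33218 genes into the edgeR fit. It then called 2 members for the KPC effect in WT mice, 1 in FoxP1SkmKO mice, 1 for the difference, 3 and 2 between the genotypes in control and KPC mice, 22, 12 and 8 of 60 at the single times (WT, FoxP1SkmKO, difference) and 7 for the shared rhythm. Of all 33218 genes, the averaged comparisons called 420 higher and 374 lower, 220 and 307, 61 and 43, 519 and 414, and 265 and 205, in this order. The shared rhythm was called for 5028 genes. Shares of all genes at the single times are not given for this fit. In that fit the prior degrees of freedom were infinite, against 8.611 with the filter, so that every gene took the spread of the trend rather than its own. On the 4 libraries of a comparison, edgeR called 5 of 60 in WT and 1 of 60 in FoxP1SkmKO mice, and DESeq2 called 6 of the 55 and 2 of the 40 for which it gave an adjusted p. The single call between the genotypes in control mice, *Myl3*, became 0 without CT18, CT22, CT26 or CT38 and with log2(FPKM + 1) or log2(FPKM + 0.1), and its adjusted p lay between 1.21e-15 and 0.136 over 13 alternatives. Over the libraries left out in turn, that count lay between 0 and 2.

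Without CT34 the averaged KPC effect on *Myh7* in WT mice reversed to -0.0941, and without CT38 that on *Myl2* reversed to 0.0244. The KPC effect on *Myh7* in FoxP1SkmKO mice ranged from -0.64 to 2.303 at CT30 (negative without the KPC replicate 2) and from -0.0397 to 3.11 at CT34 (negative without the KPC replicate 1) when libraries were left out. The shared rhythm of *Tpm3* was lost with RLE size factors and with the replicate block (0 members called in each), and 0 to 2 members were called with a library left out. The rhythms within WT control, WT KPC and FoxP1SkmKO control mice gave 0 to 1 members. The difference in the *Myh7* share ranged from -0.000645 to 0.00474 percentage points between KPC and control WT mice, and from -0.00244 to 0.00294 between FoxP1SkmKO and WT KPC mice. The replicate block, whose numbers do not pair the mice, changed no other count of members called. Counts of 3 to 665 reads for *Myl2*, *Tnnc1*, *Tnni1*, *Tnnt1* and *Myh7* limit the precision of these genes, and 2 mice a group limit every comparison at 1 time.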
